A study of Mus musculus with 14 samples.

Results

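The collagen family was followed in RNA-seq libraries of mouse ovary and uterus. The genes were taken by name, as every gene whose symbol in the GENCODE annotation starts with Col followed by a type number, the letter a and a chain number. This gave 45 of the 21853 genes in the deposited table. Of these, 44 encode collagen chains, and the last, Col4a3bp, encodes a ceramide transfer protein and matched by name only. The chains fell into 9 classes, namely 11 fibrillar chains, 9 fibril-associated chains, 6 chains of basement membrane type IV, 6 chains of beaded filament type VI, 4 transmembrane chains, 3 short-chain network-forming chains, 2 multiplexins, the anchoring fibril chain Col7a1 and 2 other chains.

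Collagens are secreted or membrane-bound proteins whose chains wind into a triple helix, from copies of a single chain or from chains of several genes. Fibrillar collagens form the tensile fibrils of connective tissue, type IV collagen forms the sheet under epithelia, vessels and muscle cells, and type VI collagen forms fine filaments around cells. In the ovary collagen surrounds follicles and is remodelled at ovulation, and in the uterus it lies in the endometrial stroma and between the smooth muscle bundles of the myometrium.

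The libraries came from female C57BL/6J mice aged 28 weeks, all of which had received PMSG (10 IU) and, 48 h later, hCG (10 IU), which are gonadotropins given to bring the estrous cycles into step. The old control (OC) mice then received saline. The old treatment (OT) mice received conditioned medium of human amniotic membrane-derived mesenchymal stem cells (AMSC-CM), prepared from cells of 3 donors and injected into the tail vein 6 times, 4 days apart, at 1 µL per g. Ovary and uterus were sequenced from 3 OC and 4 OT mice, 14 libraries in 4 groups, with rRNA-depleted and stranded libraries. Levels are given as FPKM, in which fragment counts are divided by transcript length and by library size. FPKM carries no read totals, so sequencing depth is unknown here.

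The markers of each organ were high where the labels place them. Summed FPKM of 10 theca and luteal genes were between 5736 and 7201 in ovaries and between 34.0 and 54.0 in uteruses, and those of 10 genes of uterine epithelium and stroma were between 639 and 695 in OC uteruses, between 405 and 588 in OT uteruses and between 74.4 and 195 in ovaries. Markers of other cell types also differed between the OC and OT uteruses. Smooth muscle markers summed to between 8779 and 10420 FPKM in OC and to between 10880 and 16410 FPKM in OT. These sums did not overlap, but 0 of the 10 markers were called in either direction. Markers of stratified squamous epithelium summed to between 3.52 and 16.4 FPKM in the OC uteruses and to between 68.6 and 831 in the OT uteruses, and adipocyte markers to between 78.6 and 268 in the OC uteruses and to between 1257 and 11810 in the OT uteruses. In the ovaries, adipocyte markers summed to between 168 and 282 in OC and to between 215 and 1786 in OT. Calls were made at the fold, p and filter on low values given with the comparison of OT and OC. In the OT uteruses, 8 of 9 tested squamous and 10 of 10 adipocyte markers were called higher, against 2.23% of all genes. In the OT ovaries these were 0 of 2 tested squamous and 5 of 10 adipocyte markers, against 0.368% of all genes. All adipocyte markers but Lipe are among the genes that the study reported as higher in OT in both organs, from these libraries. The adipocyte counts were thus in part fixed by the choice of list. Some squamous markers passed the filter in the uterus only through the OT libraries, such as Krt6a (0.05, 0.43 and 0.00 FPKM in OC). Their difference is in part built into the choice of tested genes.

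Col4a1 and Col4a2, the chains of the commonest type IV trimer, lie head to head on mouse chromosome 8 (build GRCm38). Col4a1 spans bases 11198423 to 11312826 on the minus strand and Col4a2 spans bases 11312805 to 11449287 on the plus strand, and their annotated starts are 21 bases apart. Their 300-base promoter windows from RefSeq (GRCm38.p6), which run from 250 bases before to 50 bases after each start, are shown since both genes had levels that differed little between the organs, unlike most fibrillar chains. The window of Col4a1 is chr8:11312777-11313076 on the minus strand and that of Col4a2 is chr8:11312555-11312854 on the plus strand, each written 5′ to 3′ along its gene, with GC boxes (GGGCGG) and CCAAT boxes on either strand in capitals.
Col4a1: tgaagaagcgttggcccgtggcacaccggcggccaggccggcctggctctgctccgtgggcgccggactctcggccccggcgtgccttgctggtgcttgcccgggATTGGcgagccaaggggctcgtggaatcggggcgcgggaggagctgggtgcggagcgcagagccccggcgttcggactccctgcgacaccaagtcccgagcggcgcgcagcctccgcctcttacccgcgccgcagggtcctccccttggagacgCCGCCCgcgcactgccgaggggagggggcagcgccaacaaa
Col4a2: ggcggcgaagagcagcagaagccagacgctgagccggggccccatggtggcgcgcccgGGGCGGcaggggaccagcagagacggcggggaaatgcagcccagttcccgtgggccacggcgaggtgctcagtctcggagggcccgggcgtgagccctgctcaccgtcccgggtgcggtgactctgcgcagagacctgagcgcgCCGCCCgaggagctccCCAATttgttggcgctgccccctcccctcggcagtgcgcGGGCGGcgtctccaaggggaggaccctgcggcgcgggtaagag
The windows share 78 bases, so the CCGCCC box of Col4a1 is the last GGGCGG box of Col4a2 read from the other side. Their GC contents were 74.0% for Col4a1 and 73.7% for Col4a2, against a median of 52.7% over all promoter windows, and neither held TATAAA on either strand. A window was found for 35 of the 45 genes, 38 windows in all, of which 60.5% held GGGCGG on either strand, against 35.7% of all 32851 windows. CCAAT stood in 34.2% of the collagen windows and in 37.4% of all windows, and TATAAA in 13.2% and 13.6%. These are counts of letters and not of bound sites. The pair Col4a3 and Col4a4 had annotated starts 72 bases apart, and Col4a5 and Col4a6 1309 bases apart.

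Collagen transcripts were among the most abundant in both organs. In the ovary, 37 of the 44 collagen genes had a mean of at least 0.5 FPKM over the 7 libraries, 16 had at least 10 FPKM and 8 were among the 520 genes with at least 100 FPKM. In the uterus these counts were 36, 19 and 10 (of 617), and the means of 3 genes were above 1000 FPKM. The summed FPKM of the 44 genes was 2338 ± 458 (SD, n = 7) in the ovary, 0.442% to 0.752% of each library's total, and 7338 ± 1022 (SD, n = 7) in the uterus, 1.37% to 1.99% of each total. The ranges of the organs do not overlap.

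**Figure D1:**
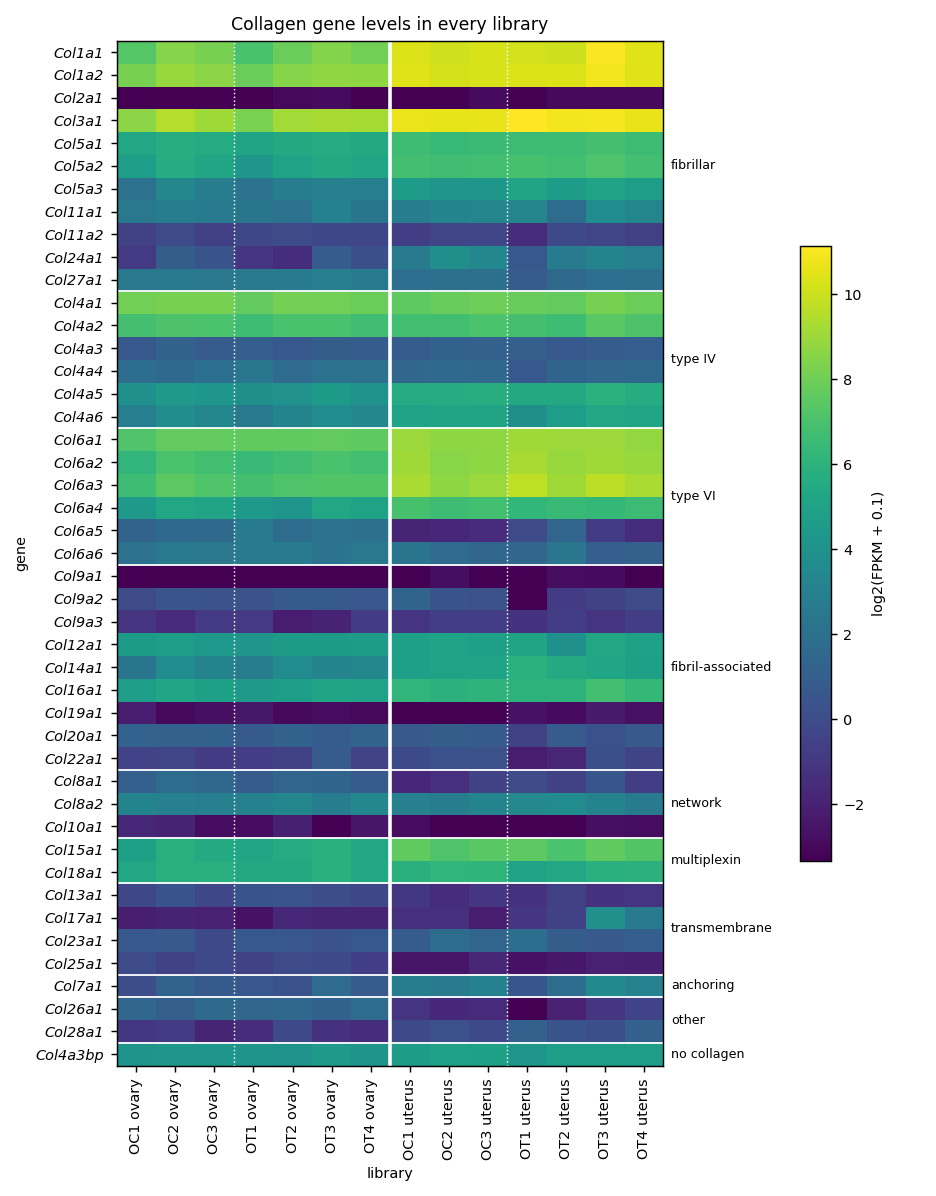
Levels of the 45 genes as log2(FPKM + 0.1) in the 14 libraries (columns, OC and OT ovaries on the left and OC and OT uteruses on the right), ordered by class. The rows of Col1a1, Col1a2 and Col3a1 are the brightest in the uterus, and Col2a1, Col9a1 and Col10a1 are dark in all libraries.

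Type I and type III chains, which build the fibrils of distensible tissue, had the highest levels. In the ovary, Col3a1 stood at 398, 739 and 547 FPKM in OC1 to OC3 and at 303, 554, 603 and 590 FPKM in OT1 to OT4. Its uterus levels were 1689, 1534 and 1596 FPKM in OC and 2267, 1892, 1969 and 1650 FPKM in OT. Col3a1 ranked 71 among all genes by mean level in the ovary and 14 in the uterus. OT1 was its lowest library in the ovary and its highest in the uterus. The OT1 uterus also had the largest FPKM total over all genes, 577494 against 425875 (OT4) to 471907 (OT2) in the other uteruses. Levels were not scaled to that total.

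The type I chains followed. Col1a1 was at 163, 374 and 285 FPKM in OC ovaries and at 128, 242, 354 and 266 FPKM in OT ovaries, against 1344, 1110 and 1240 FPKM in OC uteruses and 1139, 1066, 2098 and 1397 FPKM in OT uteruses. Col1a2 was at 289, 486 and 403 FPKM in OC ovaries and at 234, 363, 424 and 406 FPKM in OT ovaries, against 1373, 1176 and 1223 FPKM in OC uteruses and 1361, 1316, 1857 and 1433 FPKM in OT uteruses. The lowest uterus library was above the highest ovary library for each of these 3 genes, whereas OC and OT overlapped in both organs. The ovary means of Col1a1 (259 ± 90.9 FPKM, SD, n = 7) and Col4a1 (264 ± 32.1 FPKM, SD, n = 7) did not differ beyond their spread, nor did the uterus means of Col1a1 (1342 ± 355 FPKM, SD, n = 7) and Col1a2 (1391 ± 224 FPKM, SD, n = 7).

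The other fibrillar chains were lower. Col5a1 and Col5a2, which join type I fibrils and limit their thickness, averaged 44.7 and 35.7 FPKM in the ovary and 97.2 and 116 FPKM in the uterus. The cartilage chain Col2a1 was at or under 0.0367 FPKM in every library.

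Basement membrane type IV chains had a different pattern. Col4a1 was at 265, 295 and 288 FPKM in OC ovaries, at 203, 284, 270 and 242 FPKM in OT ovaries, at 185, 218 and 244 FPKM in OC uteruses and at 217, 202, 290 and 242 FPKM in OT uteruses. Its ovary and uterus libraries overlapped. Col4a2 averaged 122 ± 13.7 FPKM in the ovary and 125 ± 24.5 FPKM in the uterus (SD, n = 7 each). Col4a5 and Col4a6, which occur together in the basement membrane of smooth muscle, averaged 18.3 and 9.92 FPKM in the ovary and 49.4 and 31.4 FPKM in the uterus. Col4a3 and Col4a4, known from the kidney glomerulus, had means between 1.76 and 3.83 FPKM in the organs.

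Type VI chains were the next most abundant class after the fibrillar chains in the uterus, with a summed mean of 1712 against 4793 FPKM, and in the ovary they stood at 476 against 1265 FPKM. Col6a1 was at 145, 204 and 200 FPKM in OC ovaries and at 193, 193, 201 and 191 FPKM in OT ovaries, against 503, 413 and 430 FPKM in OC uteruses and 552, 525, 515 and 455 FPKM in OT uteruses. Col6a2, its partner in the trimer, was at 72.2, 133 and 110 FPKM in OC ovaries and at 90.9, 106, 128 and 108 FPKM in OT ovaries, against 546, 379 and 409 FPKM in OC uteruses and 621, 483, 548 and 474 FPKM in OT uteruses. Col6a3, the large chain, was at 99.1, 178 and 141 FPKM in OC ovaries and at 118, 144, 147 and 150 FPKM in OT ovaries, against 635, 412 and 494 FPKM in OC uteruses and 863, 553, 840 and 628 FPKM in OT uteruses. For each of these chains all uteruses were above all ovaries, and OC and OT overlapped. Means of the related chain Col6a4 were 30.3 FPKM in the ovary and 97.0 FPKM in the uterus.

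Among the remaining collagens, Col15a1 and Col18a1, multiplexins of the basement membrane zone, averaged 45.1 and 47.7 FPKM in the ovary and 167 and 56.2 FPKM in the uterus. The fibril-associated chains Col12a1 and Col16a1 averaged 23.2 and 29.9 FPKM in the ovary and 30.2 and 74.8 FPKM in the uterus. Col2a1, Col9a1, Col9a3, Col10a1 and Col19a1 had means under 0.5 FPKM in both organs, and 4 of these are best known from cartilage (Col2a1, Col9a1, Col9a3 and Col10a1).

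To see how collagen usage differs between the organs, uterus was compared with ovary in a limma fit of all 14 libraries on log2(FPKM + 0.1), over genes whose mean was 0.5 FPKM or more. A gene was called at a log2 difference of at least 1 in size and a Benjamini-Hochberg adjusted p under 0.05 over all 14557 tested genes. Collagen genes were mostly higher in the uterus. Of the 38 collagen genes tested, 19 were called higher (50.0%, against 10.0% of all tested genes) and 4 lower (10.5%, against 9.59% of all tested genes). The median log2 difference of the 38 was 0.93, against -0.004 over all tested genes. All uteruses were above all ovaries for 16 collagen genes (42.1%, against 11.5% of all genes) and below them for 4 (10.5%, against 13.5% of all genes). These are bulk tissues, in which fewer cells of a type and less RNA per cell cannot be told apart. Summed smooth muscle markers were between 1075 and 3168 FPKM in ovaries and between 8779 and 16410 FPKM in uteruses, summed fibroblast and stroma markers between 629 and 1073 and between 2050 and 3451 FPKM, and their part in the collagen differences was not tested. The organs come from the same mouse names and the fit left out the mouse, and with the mouse name as a block the counts were again 19 and 4.

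**Figure D2:**
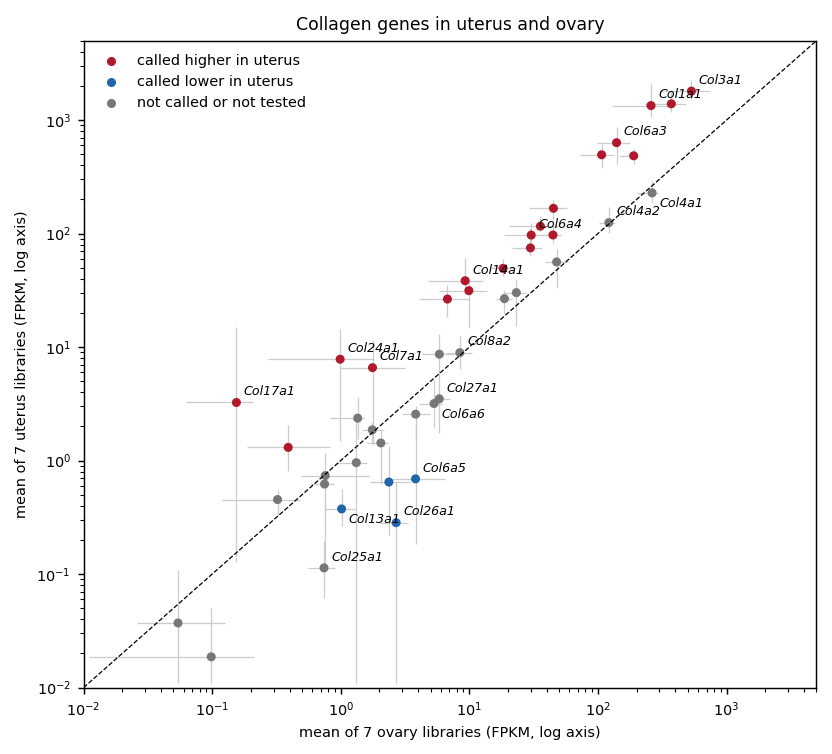
Mean FPKM of each gene in the 7 uterus libraries against the 7 ovary libraries, both axes logarithmic, with grey lines from the lowest to the highest library, cut at the axis, and the dashed line of equal levels. The 19 red genes called higher lie above the line and the 4 blue genes called lower lie below it, Col4a1 and Col4a2 lie near it, and Col2a1 and Col9a1 fall below the axis range.

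Fibrillar chains made up the largest group of genes called higher. Of 10 tested chains, 7 were called higher in the uterus and 0 lower, with a median log2 difference of 1.74. The shares of all tested genes, 10.0% higher and 9.59% lower, are the background for this and the other classes. Col24a1, a minor fibrillar chain, had the largest difference of the 19 genes called higher. It was at 0.45, 1.81 and 1.24 FPKM in OC ovaries, at 0.39, 0.27, 1.72 and 1.04 FPKM in OT ovaries, at 6.13, 14.4 and 10.8 FPKM in OC uteruses and at 1.50, 5.85, 8.83 and 7.25 FPKM in OT uteruses. The organs overlapped only through the OT1 uterus, which lay below the OC2 and OT3 ovaries, and the log2 difference was 2.91 ± 0.47 (SE, n = 7 per organ, limma adjusted p = 1.73e-04). Col1a1 followed with a log2 difference of 2.40 ± 0.24, 5.29-fold (SE, limma adjusted p = 2.69e-06). The other fibrillar genes called higher were Col5a3 (1.94), Col1a2 (1.90), Col3a1 (1.76), Col5a2 (1.72) and Col5a1 (1.11), each given as its log2 difference. Col27a1 differed the other way by -0.72 on the log2 scale, short of the size for a call, although all its uteruses were below its ovaries.

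Among type VI chains, 4 of 6 were called higher in the uterus and 1 lower. Col6a2 was 4.61-fold higher (SE 0.14 on the log2 scale, limma adjusted p = 3.71e-08). The log2 differences were 2.12 ± 0.15 for Col6a3 (SE, limma adjusted p = 1.14e-07), 1.73 for Col6a4 and 1.35 for Col6a1. Col6a5, a chain related to Col6a3, went the other way. It was at 2.38, 3.00 and 3.14 FPKM in OC ovaries, at 6.51, 3.35, 4.37 and 3.97 FPKM in OT ovaries, at 0.18, 0.21 and 0.26 FPKM in OC uteruses and at 0.91, 2.53, 0.46 and 0.27 FPKM in OT uteruses. Only the OT2 uterus reached into the ovary range, and the log2 difference was -2.80 ± 0.36 (SE, limma adjusted p = 2.19e-05).

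In the type IV class, 2 of 6 chains were called higher in the uterus and 0 lower. They were Col4a6 (log2 difference 1.66 ± 0.23, SE, limma adjusted p = 5.02e-05) and Col4a5 (1.44 ± 0.12, SE, limma adjusted p = 3.89e-07), the pair of smooth muscle basement membrane. For Col4a1 the log2 difference was -0.24 ± 0.11 (SE, limma adjusted p = 0.0745) and for Col4a2 it was 0.00 ± 0.11 (SE, limma adjusted p = 0.993). The organs therefore differed in Col4a5 and Col4a6 while Col4a1 and Col4a2 overlapped between them.

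The fibril-associated, transmembrane and other chains split. Col14a1, which lines type I fibrils, was at 4.78, 12.9 and 8.72 FPKM in OC ovaries, at 6.65, 12.3, 8.76 and 10.8 FPKM in OT ovaries, at 29.1, 33.3 and 33.1 FPKM in OC uteruses and at 60.4, 46.1, 37.4 and 29.5 FPKM in OT uteruses. The organs did not overlap, with a log2 difference of 2.05 ± 0.22 (SE, limma adjusted p = 4.35e-06). Also called higher in the uterus were Col15a1 (1.92), Col7a1 (1.75), Col28a1 (1.49) and Col16a1 (1.29), each a log2 difference, and Col17a1, whose call rests on the OT uteruses described further on.

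Besides Col6a5, 3 collagens were called lower in the uterus. Col26a1, an emilin-related collagen known from testis and ovary, was at 2.68, 2.02 and 3.13 FPKM in OC ovaries, at 2.66, 2.88, 2.14 and 3.35 FPKM in OT ovaries, at 0.36, 0.21 and 0.23 FPKM in OC uteruses and at 0.00, 0.15, 0.38 and 0.65 FPKM in OT uteruses. It had the largest difference of the 4 genes called lower, -3.04 ± 0.37 on the log2 scale (SE, limma adjusted p = 1.48e-05), and every uterus was below every ovary. It is listed at 0 in the OT1 uterus, so the size of its difference depends on the 0.1 FPKM added to each value. Col26a1 and Col13a1 passed the filter only through the ovary, and Col17a1 and Col28a1 only through the uterus.

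Col8a1, a network-forming chain of vessel walls and the corneal membrane, was at 2.03, 3.43 and 2.70 FPKM in OC ovaries, at 1.72, 2.55, 2.44 and 1.70 FPKM in OT ovaries, at 0.22, 0.30 and 0.62 FPKM in OC uteruses and at 0.93, 0.59, 1.34 and 0.53 FPKM in OT uteruses. The organs did not overlap and the log2 difference was -1.94 ± 0.25 (SE, limma adjusted p = 2.50e-05). Its partner Col8a2 averaged 8.44 FPKM in the ovary and 8.94 FPKM in the uterus and was not called. Col13a1, a transmembrane adhesion collagen, was at 0.80, 1.27 and 0.76 FPKM in OC ovaries, at 1.25, 1.29, 0.96 and 0.78 FPKM in OT ovaries, at 0.41, 0.26 and 0.39 FPKM in OC uteruses and at 0.32, 0.56, 0.31 and 0.38 FPKM in OT uteruses. These did not overlap either (log2 difference -1.22 ± 0.22, SE, limma adjusted p = 3.67e-04).

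In the OC libraries alone, 17 collagens were called higher in the uterus and 4 lower, and the calls of Col5a1 and Col17a1 were lost. Of all 14459 genes tested there, 1349 were called higher and 1446 lower. Leaving out any single mouse kept the 4 genes called lower and at least 18 of the 19 called higher. The gene that was lost was Col17a1, without OC1, OC2, OC3, OT3 or OT4.

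As FPKM is scaled to transcript length, collagen chains can be set beside each other within a library. 5 chain ratios were compared between the organs, by exact sign flips of the 7 within-mouse log2 differences, and between OC and OT in each organ by exact permutation, 15 tests in all. All are between chains that share a trimer except Col3a1 to Col1a1, which sets type III collagen, a trimer of Col3a1 alone, beside type I. The ratio of Col1a2 to Col1a1 had a geometric mean of 1.49 in ovaries (range 1.20 to 1.82) and of 1.05 in uteruses (range 0.885 to 1.23). For Col3a1 to Col1a1 it was 2.12 in ovaries (range 1.70 to 2.44) and 1.36 in uteruses (range 0.939 to 1.99). The uterus therefore had less Col1a2 and less Col3a1 per Col1a1 in each of the 7 mice.

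The type VI and type IV ratios moved up instead. The ratio of Col6a2 to Col6a1 went from 0.556 in ovaries to 1.01 in uteruses and that of Col6a3 to Col6a1 from 0.730 to 1.27, with all 7 mice in the same direction. The ratio of Col4a2 to Col4a1 went from 0.461 to 0.544, again in 7 of 7 mice and with ranges of 0.431 to 0.502 and 0.496 to 0.594. The paired log2 differences were -0.50 ± 0.18, -0.63 ± 0.28, 0.86 ± 0.26, 0.80 ± 0.39 and 0.24 ± 0.12 (SD, n = 7) in the order in which the ratios were named, each with an exact two-sided p = 0.0156 (adjusted p = 0.0469), which is the smallest p that 7 pairs can give. Between OC and OT, the adjusted exact permutation p of the ratios was between 0.429 and 0.971, and 3 against 4 libraries cannot give an exact p below 0.0571.

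**Figure D3:**
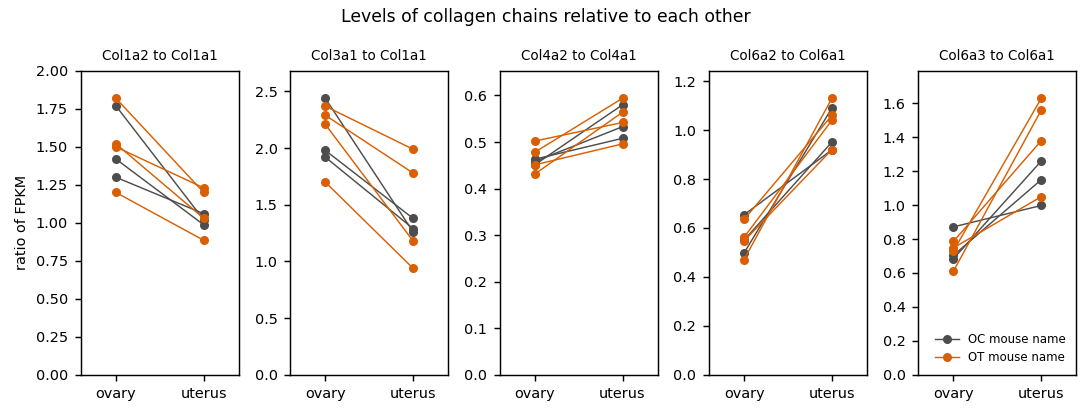
Ratios of FPKM between collagen chains in each mouse name, with a line from its ovary to its uterus (grey OC, orange OT, linear axes from 0). All 7 lines fall for Col1a2 to Col1a1 and Col3a1 to Col1a1 and all 7 rise for the other ratios.

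To find out whether AMSC-CM changed collagen expression, OT was compared with OC within each organ, by limma over genes whose mean in the 7 libraries was 0.5 FPKM or more. A gene was called at a fold change of 2, that is a log2 fold change of at least 1 in size, and an unadjusted p of 0.05. The adjusted p is given beside it. The study also used cutoffs of 2 and 0.05, but with Cuffdiff and without stating whether p was adjusted, so its calls need not match these. In the ovary no collagen was called. Of 37 collagens tested, 0 were called higher (0.368% of all 14415 tested genes were) and 0 lower (0.0832% of all genes). By limma 1 of the 37 had an unadjusted p under 0.05 (2.70%, against 4.51% of all genes), and the lowest adjusted p was 0.997. The median log2 fold change of the 37 was -0.04, against -0.01 over all tested genes, and 35 of the 37 lay within 0.5 of 0. For the abundant chains the log2 fold changes were -0.14 ± 0.28 for Col3a1, -0.14 ± 0.24 for Col1a2, -0.16 ± 0.36 for Col1a1, -0.19 ± 0.12 for Col4a1 and 0.11 ± 0.12 for Col6a1 (SE, n = 3 OC and 4 OT, limma adjusted p of at least 0.997).

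Col6a5 was the only collagen whose OC and OT ovaries did not overlap. Its OC ovaries were at 2.38, 3.00 and 3.14 FPKM and its OT ovaries at 3.35, 3.97, 4.37 and 6.51 FPKM, so that the lowest OT library was just above the highest OC library. The log2 fold change was 0.63 ± 0.23 (SE, unadjusted p under 0.05, limma adjusted p = 0.997), under the size for a call. Groups lay apart in this direction for 2.78% of all genes tested in the ovary, and in the other direction, with 0 collagens, for 3.13%.

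In the uterus, 1 of 36 tested collagens was called higher in OT (2.78%, against 2.23% of all 14151 tested genes) and 1 lower (2.78%, against 0.664% of all genes). By limma 5 of the 36 had an unadjusted p under 0.05 (13.9%, against 8.20% of all genes), and none had an adjusted p under 0.05, the lowest being 0.550. The median log2 fold change was 0.06, against 0.01 over all tested genes, with 18 genes above 0 and 18 below, and 26 of the 36 lay within 0.5 of 0. For the abundant chains the log2 fold changes were 0.27 ± 0.18 for Col3a1, 0.24 ± 0.18 for Col1a2, 0.16 ± 0.25 for Col1a1, 0.49 ± 0.23 for Col6a3, 0.27 ± 0.18 for Col6a2 and 0.19 ± 0.14 for Col6a1 (SE, n = 3 OC and 4 OT, limma adjusted p of at least 0.603). The fibrillar class had 0 calls among 10 tested chains, with log2 fold changes from -0.99 (Col24a1) to 0.52 (Col5a3).

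**Figure D4:**
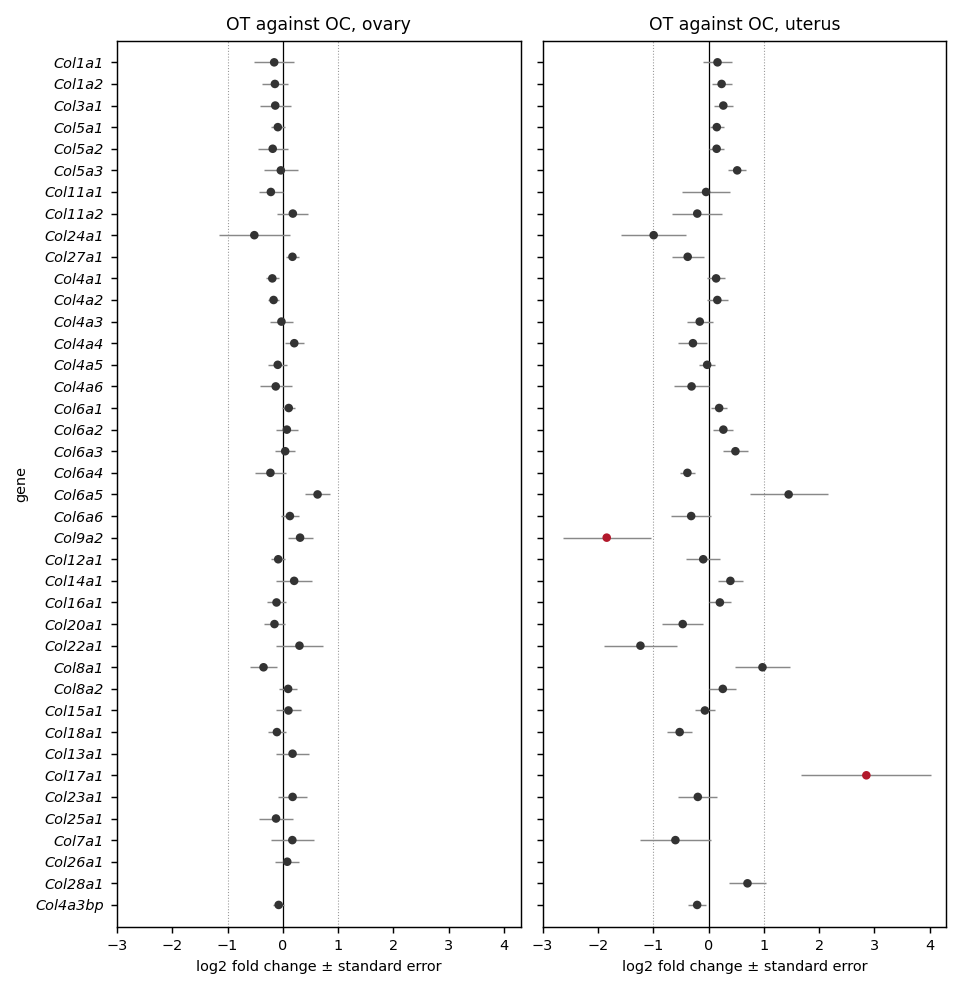
Log2 fold change of OT against OC with its standard error for each gene tested, in ovary (left) and uterus (right). Red points mark Col17a1 (2.85) and Col9a2 (-1.84), the genes called, dotted lines mark a log2 fold change of 1 in either direction, and the ovary points all lie between -0.52 and 0.63.

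Col17a1, the transmembrane collagen of hemidesmosomes that fastens stratified epithelium to its basement membrane, was the collagen called higher. It lies on chromosome 19, bases 47646344 to 47692094 on the minus strand (GRCm38). It was at 0.28, 0.30 and 0.13 FPKM in OC uteruses and at 0.38, 0.60, 15.1 and 5.96 FPKM in OT uteruses, while all 7 ovaries were between 0.06 and 0.21 FPKM. The OT uteruses were all above the OC uteruses, with OT3 and OT4 far above OT1 and OT2. The log2 fold change was 2.85 ± 1.17 (SE, limma adjusted p = 0.596). The gene passed the filter on low values only through the OT libraries (mean under 0.5 FPKM in OC), so its difference is in part built into the choice of tested genes. The same holds for Col6a5 and Col8a1 in the uterus, and for Col9a2 through the OC libraries.

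Like Col17a1, 7 of 10 squamous epithelium markers were highest in OT3 and next in OT4. The keratin gene Krt5 was at 0.46, 2.81 and 0.36 FPKM in OC uteruses and at 37.1, 11.7, 299 and 159 FPKM in OT uteruses, and Trp63 at 0.33, 0.77 and 0.26 FPKM and at 4.40, 0.78, 10.1 and 4.90 FPKM. The exceptions were Sprr1a and Ly6d, which were highest in OT1 (139 and 83.6 FPKM, against 81.0 and 29.1 FPKM in OT3), and Krtdap, which was above 0 in OT2 alone. Trp63 was 4.40 FPKM in OT1 and 4.90 FPKM in OT4, whereas Col17a1 was 0.38 and 5.97 FPKM. The marker list as a whole summed to 312, 68.6, 831 and 413 FPKM in OT1 to OT4, and its part in the Col17a1 result was not tested. Without OT3 the log2 fold change of Col17a1 was 1.96 and without OT4 it was 2.40, and in both cases the unadjusted p was above 0.05 and the call was lost. It was also no longer called without any 1 of the OC libraries, with log2 fold changes between 2.59 and 3.00. Without both OT3 and OT4 the gene was under the filter.

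Col7a1, whose anchoring fibrils bind the same epithelial border to the stroma, was at 6.86, 6.43 and 8.13 FPKM in OC uteruses and at 1.36, 3.45, 11.4 and 8.43 FPKM in OT uteruses. It was highest in OT3 and OT4 and lowest in OT1 and OT2, so that the OC libraries lay between them, and its log2 fold change of -0.60 ± 0.64 (SE, limma adjusted p = 0.739) was within the spread. Col7a1 was picked for this description after its values had been seen.

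Col9a2, a chain of the fibril-associated type IX collagen, was the collagen called lower (chromosome 4, bases 121039385 to 121055322 on the plus strand). It was at 2.39, 1.26 and 1.10 FPKM in OC uteruses and at 0.00, 0.47, 0.60 and 0.89 FPKM in OT uteruses. All OT uteruses were below the OC uteruses and OT1 is listed at 0. The log2 fold change was -1.84 ± 0.80 (SE, limma adjusted p = 0.599). As its OT mean of 0.490 FPKM was under the filter, the gene was tested only through the OC libraries, whose mean was 1.58 FPKM. Its partner chains Col9a1 and Col9a3 were under the filter on low values. Its call was lost without any 1 of OC1, OC2, OC3, OT2 or OT3, with log2 fold changes between -2.06 and -1.52. It was also lost with a pseudocount of 1, where the log2 fold change was -0.80, and with one of 0.01, where it was -2.73 and the unadjusted p was above 0.05.

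Groups lay apart in the uterus for 3 collagens higher in OT (8.33%, against 6.46% of all genes) and for 2 lower (5.56%, against 5.48% of all genes). Besides Col17a1 and Col9a2 these were Col6a5, Col5a3 and Col6a4. Of these 5 genes, Col17a1, Col6a5 and Col9a2 passed the filter through 1 group only, so the counts are no support for a change in the family. Col6a5 was at 0.18, 0.21 and 0.26 FPKM in OC uteruses and at 0.91, 2.53, 0.46 and 0.27 FPKM in OT uteruses. OT2 was highest and OT4 was barely above OC3, with a log2 fold change of 1.45 ± 0.71 (SE, limma adjusted p = 0.616), and the gene was tested only through the OT libraries. The other genes differed by less, Col5a3 by a log2 fold change of 0.52 ± 0.16 (SE, limma adjusted p = 0.550) and Col6a4 by -0.38 ± 0.14 (SE, limma adjusted p = 0.550), both under the size for a call. Col18a1 also had an unadjusted limma p under 0.05 (log2 fold change -0.52 ± 0.22, SE, limma adjusted p = 0.599), with overlapping groups.

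Markers of other cells were uneven among the OT uteruses too. Adipocyte markers summed to 11810, 1277, 2314 and 1257 FPKM in OT1 to OT4 and macrophage markers to 824, 1404, 469 and 437 FPKM, against 376 to 436 FPKM of macrophage markers in OC. Fibroblast and stroma markers summed to 3407, 3451, 2565 and 2050 FPKM in OT1 to OT4, against 2216 to 2562 FPKM in OC, and mesothelium markers to 251, 295, 110 and 87.1 FPKM, against 99.5 to 179 FPKM. OT1 and OT2 were thus the highest in macrophage, fibroblast and mesothelium markers, and OT1 and OT3 in adipocyte markers. Col14a1 was highest in OT1 and OT2 (60.4 and 46.1 FPKM), Col6a5 was highest in the same libraries, and Col22a1, a collagen of tissue junctions, was lowest there (0.11 and 0.19 FPKM, against 0.86 to 1.16 FPKM in OC). The part of those cells in these values was not tested. Col14a1 and Col22a1 were picked here after their values had been seen.

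**Figure D5:**
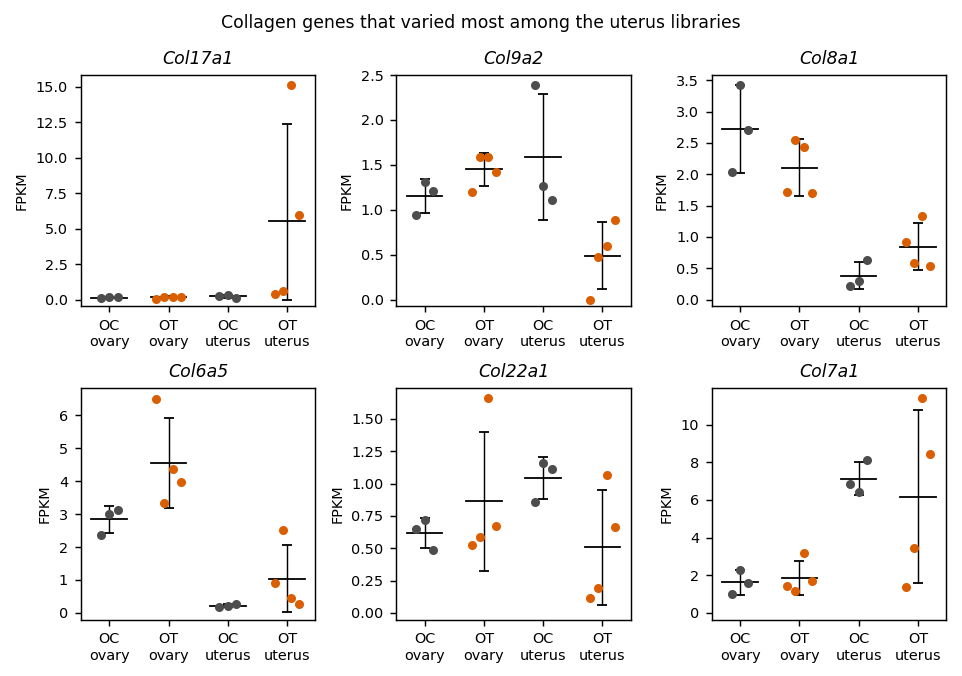
FPKM of 6 collagens in each library by group (grey OC, orange OT, linear axes from 0), with the group mean as a line and 1 SD as bars, drawn no lower than 0. In the OT uteruses Col17a1 was at 15.1 FPKM in OT3 and 5.96 FPKM in OT4 and under 1 FPKM in OT1 and OT2, and all OT uteruses lay below the OC uteruses for Col9a2.

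The OT effect was then compared between the organs in the fit of all 14 libraries, at the same fold and p. Of 38 collagens, 1 was called with a higher effect in the uterus (2.63%, against 1.28% of all genes) and 1 with a lower effect (2.63%, against 0.556% of all genes), none at an adjusted p under 0.05. With the mouse name as a block, 2 were called in each direction, Col8a1 and Col17a1 higher and Col9a2 and Col22a1 lower. Over all 14557 tested genes, the block gave 261 higher and 91 lower calls, against 186 and 81 without it. By limma without the block 2 collagens had an unadjusted p under 0.05 (5.26%, against 5.12% of all genes). Col8a1 had log2 fold changes of -0.35 ± 0.24 (ovary) and 0.98 ± 0.51 (uterus, SE), a difference of 1.32 (limma adjusted p = 0.844). Col9a2 had log2 fold changes of 0.31 ± 0.23 (ovary) and -1.84 ± 0.80 (uterus, SE), a difference of -2.15 (limma adjusted p = 0.844). In the ovary Col9a2 was at 0.94, 1.31 and 1.20 FPKM in OC and at 1.20, 1.59, 1.59 and 1.42 FPKM in OT, so that the groups overlapped there. The Col8a1 call was lost without OC2 or OT1, with differences of 1.06 and 1.18, and that of Col9a2 without OC1, with a difference of -1.71. The median difference over the 38 collagens was 0.08, against 0.02 over all genes.

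Genes that act on collagen were read from the same fits, 63 genes in 6 lists. OT against OC, 0 of 60 tested were called in the ovary and 1 of 59 in the uterus (1.69%, below the 2.23% of all genes called higher there). Of 59 tested, 0 had a called difference in OT effect between the organs. The gene called in the uterus was Podn, a fibril-binding leucine-rich proteoglycan, with a log2 fold change of 1.39 ± 0.38 (SE, limma adjusted p = 0.485). Between the organs, 16 of 59 tested were called higher in the uterus (27.1%, against 10.0% of all genes) and 4 lower (6.78%, against 9.59%), and the median log2 difference of 0.36 was smaller than that of the collagens.

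The partner genes were grouped by the step at which they act. Of 12 tested fibril-binding proteins, 6 were called higher in the uterus (50.0%, against 10.0% of all genes) and 0 lower (against 9.59%). The higher ones were Dpt (2.03), Prelp (1.80), Lum (1.66), Dcn (1.62), Fn1 (1.55) and Tnxb (1.38), each a log2 difference. Dpt, Lum and Dcn are also in the list of fibroblast and stroma markers. Of 7 procollagen-processing genes tested, 4 were called higher (57.1%, against 10.0% of all genes) and 1 lower (14.3%, against 9.59%). The higher ones were Tll1 (2.10), Pcolce2 (2.09), Adamts3 (1.58) and Adamts14 (1.30). Tll1 varied widely, at 3.47 ± 2.97 FPKM in ovaries and 20.1 ± 19.6 FPKM in uteruses (SD, n = 7 each, limma adjusted p = 0.0402). The lower one was Pcolce (-1.38), an enhancer of C-propeptide removal. The related enhancers Pcolce and Pcolce2 thus differed in opposite directions between the organs.

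Of 15 hydroxylation and glycosylation genes, 3 were called higher in the uterus (20.0%, against 10.0% of all genes) and 2 lower (13.3%, against 9.59%). The higher ones were the prolyl hydroxylase chains P4ha3 (2.67) and P4ha2 (1.30) and the lysyl hydroxylase Plod1 (1.12). The lower ones were the lysyl hydroxylase Plod2 (-1.04) and P3h4 (-1.21). Of 7 crosslinking genes, Lox (1.61) and Tgm2 (1.45) were called higher (28.6%, against 10.0% of all genes) and Loxl4 (-1.04) lower (14.3%, against 9.59%). None of 9 tested chaperone and secretion genes was called. Among 9 tested receptors the integrin chain Itga1 (1.04) was called higher (11.1%, near the 10.0% of all genes).

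Col4a3bp, the ceramide transfer protein gene matched by name, averaged 18.8 ± 1.77 FPKM in the ovary and 26.7 ± 3.90 FPKM in the uterus (SD, n = 7 each) and was not called in any comparison.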

How the data were processed

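RNA-seq of ovary and uterus from 3 OC and 4 OT mice gave 14 libraries, assigned to 4 groups by their labels. Skewer 0.2.2, STAR 2.5 and Cufflinks 2.2.1 were used by the authors to trim reads, align them to mm10 and estimate the deposited FPKM of each gene, with the strand of the library taken into account. Reads were not used here, so depth is unknown. Symbols and positions came from GENCODE M21 (GRCm38).

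FPKM were not rescaled. limma 3.58.1 in R 4.3.3 (lmFit, eBayes with a trend) was run on log2(FPKM + 0.1) over all genes whose mean was 0.5 FPKM or more, with Benjamini-Hochberg adjustment over all tested genes. A fold change on this scale understates the change of low genes. Ratios were tested with exact permutation tests in Python 3.11.15 (numpy 2.4.6, pandas 2.3.3, scipy 1.17.1, with matplotlib 3.10.9 for figures). The fits were checked on simulated data.

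The collagen genes, the partner and marker lists and the tests were chosen with earlier results of these data known. Values in every library were given for the 6 highest collagens per organ, those called between OC and OT or in the difference of the OT effect, the 3 with the largest change per organ among those whose groups did not overlap, and the 5 with the largest called difference between organs in each direction. OC and OT libraries with the same number come from different mice, and the ovary and uterus share mouse names by their labels. Alternatives changed the pseudocount, the filter, the scaling or the variance prior, added a replicate block, fitted both organs at once or left out each replicate. The alternatives with OC libraries only and without OT3 and OT4 were chosen after seeing the data. All p-values rest on these libraries only. In limma they set a difference against the spread between libraries, moderated over all genes. For the ratios they come from exact permutations or sign flips.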

Additional observations from a re-analysis of the deposited data

Results flagged for a closer look

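In groups of 4 libraries, a library was marked where its gap to the next library exceeded Dixon's critical value as a share of the group's range. This held in 5 of 75 groups tested, and chance marks about 1 in 20. In the ovary these were Col3a1 in OT1 (303 FPKM, the lowest) and Col11a1 (8.19 FPKM) and Col22a1 (1.66 FPKM) in OT3, both the highest. In the uterus they were Col5a1 in OT3 (117 FPKM, the highest) and the non-collagen Col4a3bp in OT1 (19.7 FPKM, the lowest). The OT effect differed between the organs at an unadjusted p under 0.05 for Col9a2 (difference of log2 fold changes -2.15) and Col8a1 (1.32), both with a limma adjusted p of 0.844.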

How the results depend on the processing

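The absence of calls in the ovary held in all 15 alternatives, and the count of 19 collagens higher in the uterus than in the ovary stayed within 1.5 times in all 15. For OT against OC in the uterus, the counts of 1 higher and 1 lower became 0 and 0 with a pseudocount of 1 or a mean of at least 2 FPKM, 1 and 0 with a pseudocount of 0.01 and 2 and 2 (Col6a5 and Col22a1 added) in a single fit of all libraries. Over all genes the single fit gave 381 higher and 139 lower calls of 14557, against 316 and 94 of 14151. Without OT3 and OT4 there were 4 lower calls (Col7a1, Col24a1, Col9a2 and Col22a1) and the median became -0.091, with log2 fold changes of -0.034 for Col4a1 and -0.156 for Col1a1. Calls over all genes rose in that setting too, from 94 to 291 lower and from 316 to 519 higher. Leaving out 1 replicate gave 0 to 1 calls in each direction. Between organs, the median of 0.93 became 0.596 with a pseudocount of 1, 0.391 without a filter and 1.436 with a mean of at least 2 FPKM, where 1 gene (Col6a5) stayed called lower as fewer genes were tested. With OC libraries only the Col9a2 difference was 0.365. For the difference in OT effect, the counts of 1 and 1 became 0 and 0 with a pseudocount of 1 or a mean of at least 2 FPKM, 2 and 0 with a pseudocount of 0.01, and 3 lower (Col7a1, Col9a2 and Col22a1) without OT3 and OT4. Lower calls over all genes rose from 81 to 187 without OT3 and OT4. Leaving out 1 mouse gave 0 to 2 in each direction and medians from -0.081 to 0.184.

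The replicate numbers of OC and OT name different mice. The same-number correlations of deviations were 0.331, 0.045 and 0.080 (ovary) and 0.080, 0.001 and -0.027 (uterus). Different-number pairs ran from -0.382 to 0.253 (ovary) and from -0.270 to 0.189 (uterus). All same-number values but that of the OC1 and OT1 ovaries lay within these ranges. With the replicate block, which drops OT4, the ovary had 0 and 0 collagen calls and the uterus 1 and 1, but of Col6a5 (higher) and Col24a1 (lower). Over all genes it moved the counts from 53 and 12 to 69 and 34 (ovary) and from 316 and 94 to 428 and 238 (uterus). Within the mouse, correlations between ovary and uterus were 0.074 to 0.254, against -0.235 to 0.248 between different mouse names within OC or OT. With the mouse name as a replicate block the difference in OT effect had 2 higher calls (Col17a1 and Col8a1) and 2 lower (Col9a2 and Col22a1). Over all genes the calls moved from 186 and 81 to 261 and 91.

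Without 1 replicate, log2 fold changes in the ovary ran from -0.362 to 0.098 for Col3a1, from -0.349 to 0.048 for Col1a2, from -0.489 to 0.131 for Col1a1, from -0.052 to 0.194 for Col6a1, from -0.182 to 0.239 for Col6a3 and from -0.176 to 0.266 for Col6a2, and in the uterus from -0.042 to 0.284 for Col1a1. Log2 ratios between OT and OC ran from -0.083 to 0.141 (Col1a2 to Col1a1), from -0.045 to 0.127 (Col3a1 to Col1a1), from -0.014 to 0.059 (Col4a2 to Col4a1), from -0.124 to 0.072 (Col6a2 to Col6a1) and from -0.130 to 0.045 (Col6a3 to Col6a1) in the ovary, and from -0.061 to 0.300 (Col3a1 to Col1a1) and from -0.021 to 0.075 (Col4a2 to Col4a1) in the uterus. Between organs they ran from -0.538 to -0.453, from -0.698 to -0.581, from 0.213 to 0.259, from 0.798 to 0.927 and from 0.709 to 0.902 in the same order, and 6 mice cannot give an adjusted p under 0.05. The counts of all genes called higher and lower in the ovary became 16 and 2 with a pseudocount of 1, 25 and 0 with a mean of at least 2 FPKM, 99 and 60 without a filter and 104 and 33 without OT3. FPKM without read totals limits what can be said of genes near 0. The cause of these changes was not tested.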
